A study of Mus musculus with 8 samples.

Results

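The 6 Iroquois genes Irx1 to Irx6 were examined in an array series on the developing mouse lung. They were taken as the probe sets that carry 1 of these 6 symbols alone in the platform annotation, and a gene with several such probe sets was represented by the one with the highest mean over the 8 arrays. This gave 7 probe sets and 6 genes out of 22180 genes tested, with 3 genes in the Irx1, Irx2 and Irx4 cluster on chromosome 13 and 3 in the Irx3, Irx5 and Irx6 cluster on chromosome 8.

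RNA came from whole lungs of embryos at embryonic day 14.5 on a mixed C57BL/6 x 129S6 background. The 4 mutants had the genotype Shh-cre:Ezh2-flox/flox, which is meant to remove Ezh2, the methyltransferase of Polycomb repressive complex PRC2, where Cre driven from the Shh gene is active, in the lung chiefly the epithelium. The 4 controls had the genotype Shh-cre, so both genotypes carried the Cre allele. Mutants 1 and 2, mutants 3 and 4, controls 1 and 2, and controls 3 and 4 were littermates, and no litter held both genotypes.

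Iroquois proteins are transcription factors of the TALE homeobox class, named after a Drosophila complex that patterns the wing and thorax. Mammals hold their Iroquois genes in a pair of clusters that arose by duplication, so that Irx1 is the paralogue of Irx3, Irx2 of Irx5 and Irx4 of Irx6. Irx1, Irx2, Irx3 and Irx5 are known to be transcribed in the epithelium of the branching mouse lung, Irx4 is known for the ventricles of the heart, and Irx6 for interneurons of the retina. Their loci are textbook targets of Polycomb repression in cells that do not transcribe them.

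Over the 8 arrays the median log2 value was 7.05 to 7.12 and any pair of arrays correlated at 0.9859 to 0.9951 over all probe sets. Along the first principal component mutant 3 and control 3 stood farthest apart. By Xist and Y-linked genes, mutant 3, control 1 and control 2 were male, so the 2 control litters also differ in sex and these cannot be told apart. Ezh2 itself had log2 values of 11.75 to 11.80 in mutants and 11.83 to 11.93 in controls, with a log2 change of −0.09 (limma, adjusted p = 0.652, not called), and whether its probes lie in the deleted part is not given in the sources used here. All log2 changes are mutant minus control on RMA values. Unless another setting is named, they come from limma with litter as a random block and Benjamini-Hochberg adjustment over all 22180 genes. A gene is called at an adjusted p under 0.05. RNA of the whole organ was measured, so fewer cells of a type and less RNA per cell cannot be told apart.

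In mutant lungs 2 of the 6 Iroquois genes fell, Irx5 and Irx3, and both belong to the cluster on chromosome 8. Irx1 and Irx2 were lower by a smaller amount that did not pass, and Irx4 and Irx6 had small positive log2 changes that did not pass. Called lower were 55 genes in the whole table, or 0.248% of the genes tested, and called higher 134, or 0.604%, which together make 0.852%. The median log2 change of the 6 genes was −0.22, beside 0.01 over all genes tested. The count of 2 lower and 0 higher became 1 lower and 0 higher in 14 of 28 other settings, by the loss of Irx3 in 13 of them and of Irx5 in 1.

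Irx5, known in mice for retinal bipolar cells and for the repolarization gradient of the heart wall, had the largest fall of the family. Its log2 values were 8.86, 8.95, 8.87 and 8.93 in mutants 1 to 4, against 9.51, 9.45, 9.29 and 9.43 in controls 1 to 4. All mutants lay below all controls, and the gap between the highest mutant and the lowest control was wider than the whole range of the mutants. Irx5 averaged 8.90 ± 0.05 in mutants and 9.42 ± 0.09 in controls (SD, n = 4 each). The log2 change was −0.51 ± 0.07 (SE, 95% CI −0.66 to −0.37), which is −30.0% on the linear scale (95% CI −36.6% to −22.6%). In limma its adjusted p was 0.00347. It ranked 64 among the 22180 genes by the size of its fall. Among the 55 genes called lower it ranked 30 by size and 10 by p. An exact two-sided permutation test gave 0.0286, which is the lowest p possible for 4 against 4. With only the 3 mutants and 2 controls of high Xist level, the log2 change was −0.44 and the adjusted p 0.0511 by limma. Those controls, 3 and 4, came from a single litter, so that p does not take in how control litters differ. The call held in the other 27 settings, among them the fit to litter means, with an adjusted p of 0.0431 by limma. Some of the 27 only move the threshold of the same fit or leave out the litter block, so they are not independent checks.

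Irx3, which with Irx5 shapes conduction in the heart and is a target of enhancers inside the neighbouring obesity gene Fto, fell as well. Its log2 values were 8.96, 8.99, 8.97 and 9.00 in mutants, against 9.23, 9.26, 9.43 and 9.42 in controls. The mutants were nearly equal to each other, while the controls of the first litter lay below those of the second, and the groups did not overlap. Irx3 averaged 8.98 ± 0.02 in mutants and 9.34 ± 0.10 in controls (SD, n = 4 each). The log2 change was −0.35 ± 0.06 (SE, 95% CI −0.49 to −0.21), or −21.8% on the linear scale. Its adjusted p was 0.0267 in limma and its exact permutation p 0.0286. Among the 55 genes called lower Irx3 ranked 55 by the size of its fall and 40 by p. The fall kept its sign in all 28 other settings, but several of them cannot alter it. They change only the blocks, the variance model, the genes tested or the threshold. The call was lost in 13 of the 28 settings. Among these 13 were the limma fits without mutant 1, 3 or 4, with adjusted p of 0.0773, 0.0549 and 0.084, and without control 3 or 4, with 0.0563 and 0.112.

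A second probe set annotated to Irx3 was dimmer. It had log2 values of 6.59, 6.50, 6.58 and 6.54 in mutants, against 6.74, 6.77, 6.69 and 6.58 in controls, with overlap between the lowest control and the mutants. All 8 values lay below 6.82, the level that 95% of 1105 olfactory receptor genes, taken as a description of background, did not exceed. They lay above the median of those genes, 4.61, so whether this probe set reads background is not settled here. Its log2 change was −0.14 ± 0.06 (SE), and over all probe sets limma gave an adjusted p of 0.639. Irx3 is transcribed from the minus strand. Of the 40 nearest probe sets by number with a known strand, 39 lay on the plus strand for the dimmer one, against 0 of 40 for the one used, so whether the dimmer one reads Irx3 RNA or a transcript of the opposite strand is not settled here. With the 2 probe sets averaged, Irx3 had a log2 change of −0.25 and an adjusted p of 0.0584 by limma.

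**Figure D1:**
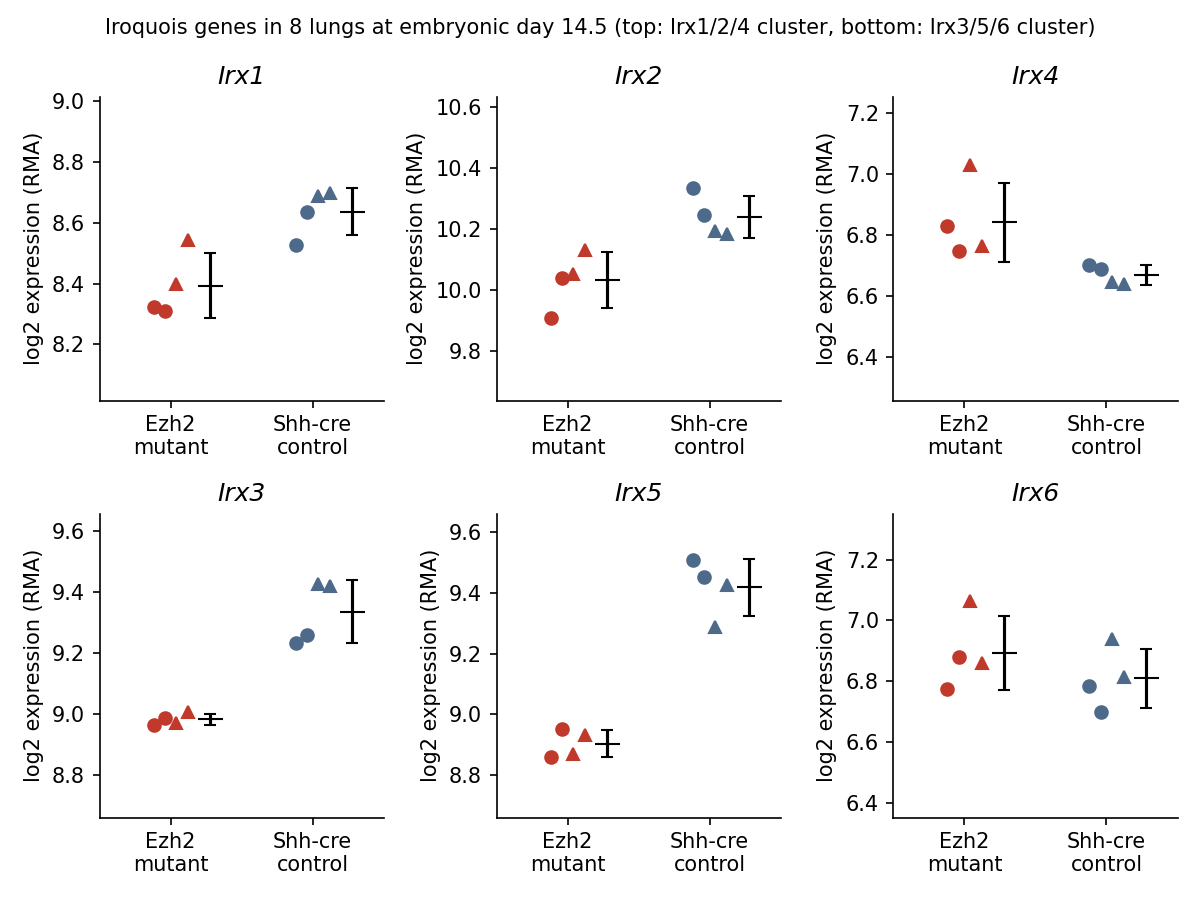
Log2 expression (RMA, y axis, each panel spanning 1 log2 unit) of the 6 Iroquois genes in single lungs of Ezh2 mutant embryos (red, left) and Shh-cre control embryos (blue, right). Circles are embryos 1 and 2 and triangles embryos 3 and 4 of each genotype, which are 2 litters, and black bars give mean and SD (n = 4 each). In Irx2, Irx3 and Irx5 all mutants lie below all controls, in Irx4 all lie above, and Irx1 and Irx6 overlap.

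Irx1, the paralogue of Irx3, was lower in most mutants. Its log2 values were 8.32, 8.31, 8.40 and 8.54 in mutants, against 8.53, 8.63, 8.69 and 8.70 in controls. The groups overlapped only through mutant 4 and control 1. The log2 change was −0.24 ± 0.07 (SE, 95% CI −0.40 to −0.08). In limma the unadjusted p was 0.00624 and the adjusted p 0.227, and the exact permutation p was 0.0571.

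Irx2, the paralogue of Irx5, had log2 values of 9.91, 10.04, 10.05 and 10.13 in mutants, against 10.33, 10.25, 10.19 and 10.18 in controls. All mutants lay below all controls, with mutant 4 and control 4 closest to each other. The log2 change was −0.21 ± 0.07 (SE, 95% CI −0.36 to −0.06). The adjusted p was 0.307 in limma and the exact permutation p 0.0286. Irx1 and Irx2 were lower in all 28 other settings, several of which cannot alter the log2 change, as for Irx3. They were called in 0 of the 28 by limma. Their adjusted p by limma came to 0.071 and 0.118 at the lowest, both with the Xist level as a covariate.

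The remaining members were dim. Irx4 had log2 values of 6.83, 6.75, 7.03 and 6.76 in mutants, against 6.70, 6.69, 6.65 and 6.64 in controls. The mutants lay above the controls, with mutant 3 highest, and the log2 change of 0.17 ± 0.08 (SE, 95% CI 0.01 to 0.34) did not pass (adjusted p = 0.483, limma; exact permutation p = 0.0286). Irx6 had 6.77, 6.88, 7.06 and 6.86 in mutants, against 6.78, 6.70, 6.94 and 6.81 in controls, with overlap, and its log2 change was 0.08 ± 0.08 (SE, 95% CI −0.09 to 0.26; limma, adjusted p = 0.80). The deposited table holds no detection calls. As a description of background on these arrays, Xist read 6.37 to 6.74 in the male embryos, and the olfactory receptor level was 6.82 as above. Lower background was also read. The Y-linked genes Kdm5d, Eif2s3y and Uty read 4.63 to 5.49 in the high-Xist embryos, and the median of the olfactory receptor genes was 4.61. The values of Irx4 and Irx6 lie near the upper end of these readings, so whether their RNA is present is not settled here.

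By direction, 4 of the 6 genes had a negative log2 change, beside 47.1% of all genes. In 3 of the 6 all mutants lay below all controls, which held for 3.6% of all genes, and in 1 all mutants lay above all controls, which held for 4.48%, so that 4 of the 6 were without overlap beside 8.07% of all genes. An unadjusted p under 0.05 by limma was found for 4 members lower and 1 higher, beside 4.26% and 5.61% of all genes, or 9.87% in either direction. The same shares stand beside the counts of the gene lists below. The exact permutation test was run on each of the 6 genes and takes littermates as independent.

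**Figure D2:**
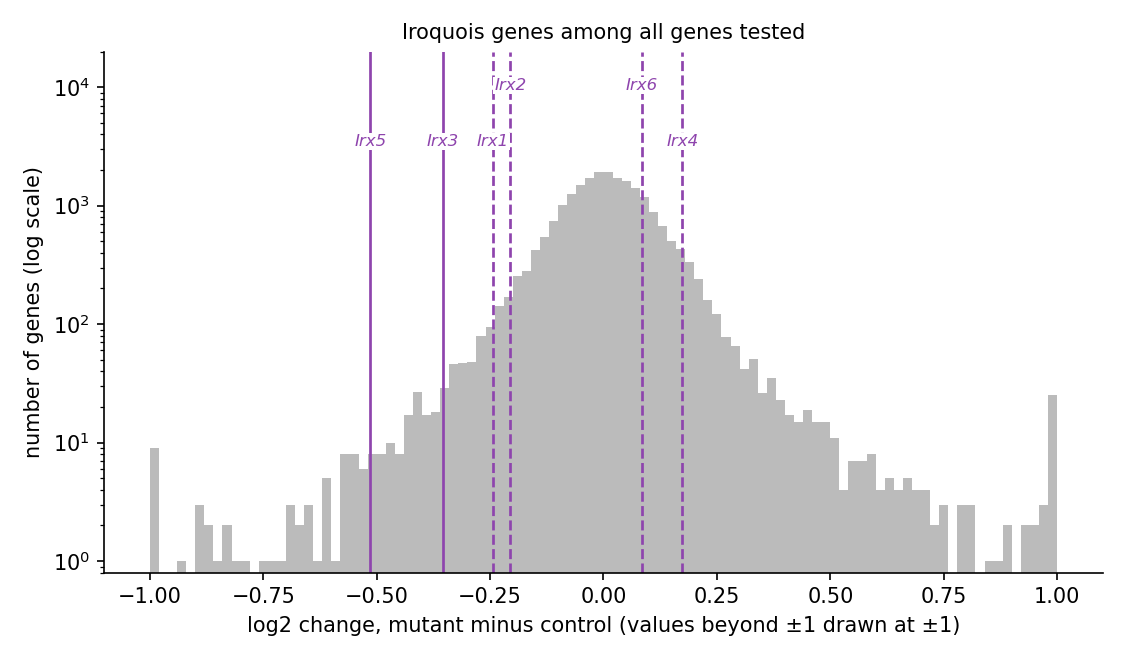
Log2 change, mutant minus control (x axis), of all 22180 genes as a histogram with the number of genes on a log scale (y axis), with the 6 Iroquois genes as purple lines, solid where called and dashed where not. Irx5 at −0.51 and Irx3 at −0.35 lie in the lower tail, Irx1 and Irx2 at −0.24 and −0.21 at its edge, and Irx6 and Irx4 on the positive side.

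In each cluster a pair of genes had negative log2 changes and a dim gene a positive one. The mean log2 value of Irx3, Irx5 and Irx6 was 8.20 to 8.30 in mutants and 8.47 to 8.55 in controls, a difference of −0.26. The mean of Irx1, Irx2 and Irx4 was 8.35 to 8.49 in mutants and 8.51 to 8.52 in controls, a difference of −0.09. The chromosome 8 mean minus the chromosome 13 mean was −0.15, −0.09, −0.19 and −0.21 in mutants 1 to 4, against −0.01, −0.05, 0.04 and 0.05 in controls 1 to 4. The mutants lay below the controls without overlap, and the difference of −0.17 between genotypes is given as a description with no test. It ranged from −0.21 to −0.13 over 22 other settings, some of which cannot alter it.

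Paralogues and cluster mates were compared by the difference of their changes. The log2 change of Irx5 minus that of Irx2 was −0.31 ± 0.05 (SE), with an exact permutation p of 0.0286 and an adjusted p of 0.143 over the 5 pairs of genes compared in this way, which were chosen after the values were seen. For Irx3 minus Irx1 the difference was −0.11 ± 0.05 (exact permutation p = 0.0857), and for Irx6 minus Irx4 it was −0.09 ± 0.07 (exact permutation p = 0.286). Within a cluster, Irx5 minus Irx3 gave −0.16 ± 0.09 (exact permutation p = 0.229) and Irx2 minus Irx1 gave 0.04 ± 0.08 (exact permutation p = 0.657). With 4 against 4 the lowest exact p is 0.0286, so a single pair at that floor comes to 0.143 over 5 pairs and could not have passed, and the adjusted values say nothing about whether the members changed alike.

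The start regions of the genes are shown because Polycomb complexes are known to gather on unmethylated CpG-rich starts in mammals. RefSeq windows of GRCm38.p6 from 250 bases before to 50 bases after the start were at hand for 3 of the 6 genes, Irx2, Irx3 and Irx4. Printed are those of Irx3, which was called, and of Irx2, the paralogue of the called gene Irx5, each 5′ to 3′ on the strand of the gene with CG dinucleotides in capitals. The Irx3 window is chr8:91801605-91801904 on the minus strand and the Irx2 window is chr13:72628570-72628869 on the plus strand.
Irx3: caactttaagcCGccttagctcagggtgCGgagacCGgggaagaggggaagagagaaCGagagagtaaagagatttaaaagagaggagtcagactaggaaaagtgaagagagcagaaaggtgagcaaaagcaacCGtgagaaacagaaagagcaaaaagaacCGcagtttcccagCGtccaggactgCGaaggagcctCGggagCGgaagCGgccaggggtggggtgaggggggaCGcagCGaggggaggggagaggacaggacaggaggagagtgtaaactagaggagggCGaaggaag
Irx2: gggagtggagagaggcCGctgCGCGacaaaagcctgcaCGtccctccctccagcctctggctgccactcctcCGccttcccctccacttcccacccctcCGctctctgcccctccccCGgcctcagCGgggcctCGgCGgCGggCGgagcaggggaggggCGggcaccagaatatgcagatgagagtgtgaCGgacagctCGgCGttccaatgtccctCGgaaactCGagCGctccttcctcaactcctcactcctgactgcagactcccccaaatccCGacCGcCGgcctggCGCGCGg

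The Irx3 window holds 14 CG dinucleotides and the Irx2 window 25, and the Irx4 window, not printed, holds 31. Over 32851 such windows of the table the median was 7, and 63.7%, 81.6% and 89.4% of windows held fewer than those of Irx3, Irx2 and Irx4. The letters GGGCGG, searched on both strands and each overlapping a CG, occur 2 times in the Irx2 window, 2 times in the Irx4 window and 0 times in the Irx3 window, and 35.7% of all windows hold them. The letters TATAAA, searched on both strands, are in none of the 3 windows and in 13.6% of all windows. All 3 windows, of a called gene, of a gene that was lower without a call and of a dim gene, hold more CG than the median window.

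Genes beside the clusters were compared to see whether the fall extended past the Iroquois genes. The 5 nearest tested genes on each side of each cluster and the 3 tested genes within them made 23 genes, of which 0 were called by limma. At an unadjusted p under 0.05 by limma, 1 was higher and 2 were lower, beside 5.61% and 4.26% of all genes. The median log2 change was −0.01.

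Within the chromosome 8 cluster, Crnde, a long noncoding RNA gene between Irx3 and Irx5, had log2 values of 8.80, 8.73, 8.71 and 8.80 in mutants, against 8.78, 8.63, 9.28 and 8.76 in controls. Apart from the high control 3 the groups lay in the same range, and Crnde was not called (log2 change −0.10 ± 0.13 SE; limma, adjusted p = 0.857). Fto, an RNA demethylase gene on the Irx3 side, had a log2 change of −0.11 ± 0.06 (SE), and Mmp2, a matrix metalloproteinase gene next to Irx6, had 0.003 ± 0.06 (SE), and neither passed. Rbl2, a member of the retinoblastoma family beyond Fto, had 0.21 ± 0.08 (SE, adjusted p = 0.429, limma). Aktip, also beyond Fto, had −0.09 with all mutants below all controls and did not pass.

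Within the chromosome 13 cluster, Gm20554, a long noncoding RNA gene next to Irx2 on the opposite strand, had log2 values of 8.48, 8.49, 8.34 and 8.53 in mutants, against 8.61, 8.71, 8.50 and 9.07 in controls. The groups overlapped, and the log2 change of −0.26 ± 0.12 (SE) was of the size of those of Irx1 and Irx2 but did not pass (adjusted p = 0.527, limma). Beyond Irx4, all mutants lay below all controls for Eprn, a noncoding RNA gene, with a log2 change of −0.19, and for Lpcat1, an enzyme of surfactant lipid synthesis, with −0.17, and neither passed. On the other side, Adamts16, a metalloprotease gene near Irx1, had 0.15 with all mutants above all controls and did not pass. Over all genes, all mutants lay below all controls in 3.6% and above them in 4.48%.

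**Figure D3:**
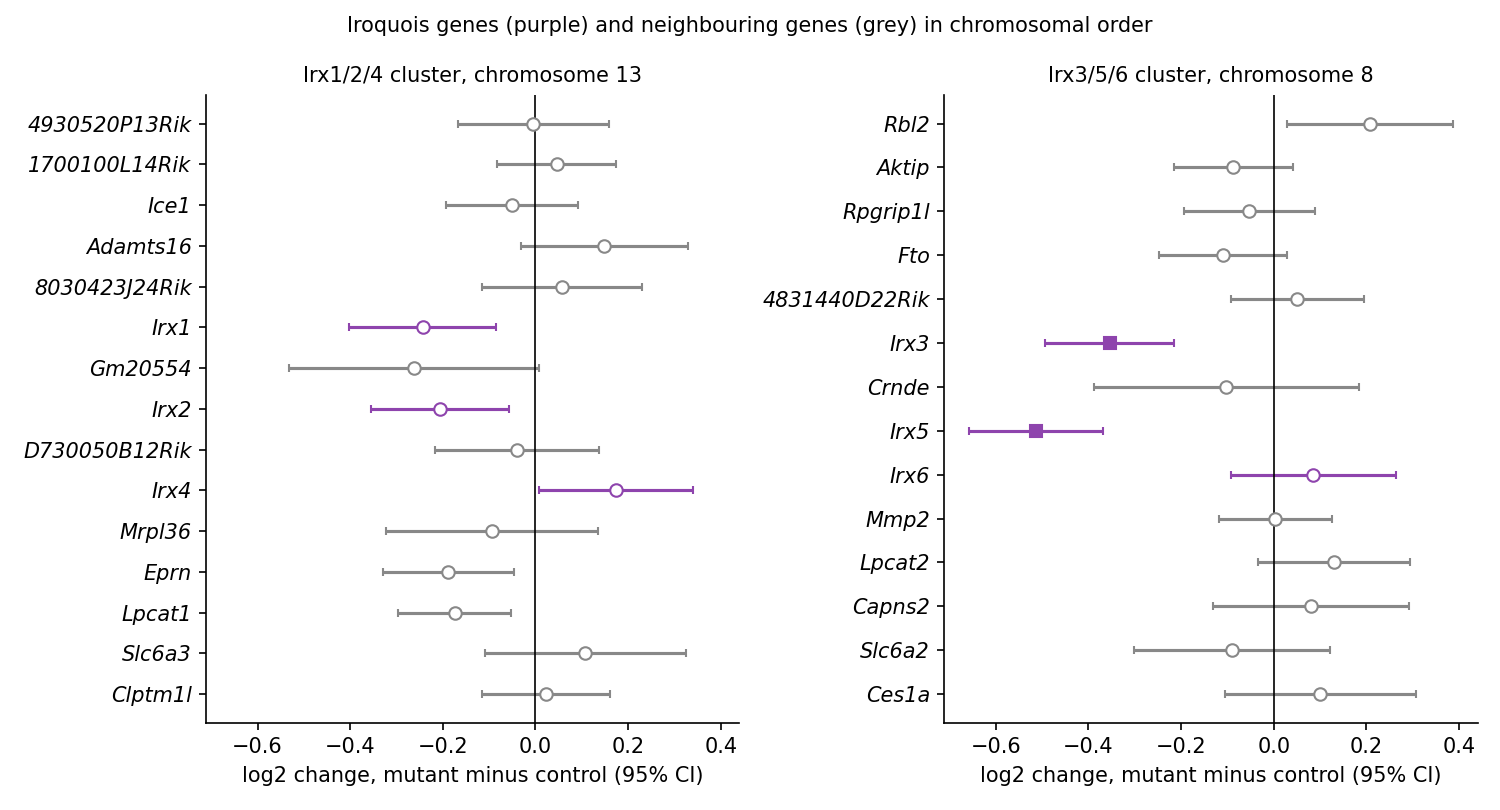
Log2 change, mutant minus control, with its 95% confidence interval (x axis) for the Iroquois genes (purple) and neighbouring tested genes (grey), in chromosomal order from top to bottom, with filled squares for called genes. Only the intervals of Irx3 and Irx5 belong to called genes, while Crnde between them spans 0.

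Other genes of the TALE class, whose MEIS and PBX proteins act as partners of Hox proteins, were set beside the family. Among 11 measured of 12 listed, 1 rose and 0 fell, and the other 10 were not called. Their median log2 change was 0.05. Meis2 rose, with log2 values of 10.69 to 10.80 in mutants and 10.37 to 10.50 in controls, a log2 change of 0.30 ± 0.06 (SE) and, in limma, an adjusted p of 0.0455. Pbx4 had 0.24 and Meis1 0.08, and neither passed. At an unadjusted p under 0.05, 2 of these genes were higher and 0 lower, beside 4 lower and 1 higher Iroquois genes.

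Regulators of branching and lung endoderm were listed next, since Irx1, Irx2, Irx3 and Irx5 are known from the branching epithelium. The list also holds genes of the mesenchyme, such as Fgf10. Among 31 measured of 32 listed, 0 rose and 1 fell by limma, and the other 30 were not called, with 3 higher and 6 lower at an unadjusted p under 0.05. Their median log2 change was 0.005. The gene that fell was Foxa1, a forkhead factor of lung endoderm, at 9.71 to 9.88 in mutants and 10.33 to 10.39 in controls, with a log2 change of −0.56 ± 0.06 (SE) and an adjusted p of 0.00107 by limma. Its fall was close in size to that of Irx5.

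Of the 31 regulators 16 had a positive and 15 a negative log2 change. Etv5, a target of FGF signalling at the branch tips, had log2 values of 10.47 to 10.64 in mutants and 10.85 to 11.00 in controls, with a log2 change of −0.33 and an adjusted p of 0.0611 by limma. Etv4, a related target of FGF signalling, went the other way, at 7.96 to 8.10 in mutants and 7.70 to 7.84 in controls, with 0.23 and an adjusted p of 0.174 by limma. The ligand genes Wnt2b and Bmp4 had 0.55 and 0.37, with overlap between genotypes. These 3 were the regulators higher at an unadjusted p under 0.05 and were picked after their values were seen. The ligand gene Shh had −0.28, Foxa2 −0.20, Sox9, a factor of the tips, −0.10, Nkx2-1, the lung regulator, −0.04 and Sox2, a factor of the airways, −0.03. The mesenchymal ligand Fgf10 had 0.07, and Gli1 and Gli3, which carry the Hedgehog signal, had −0.07 and 0.03. Hhip and Mycn had −0.22 and −0.20, with all mutants below all controls. Foxa1, Etv5, Shh, Foxa2, Hhip and Mycn were the 6 regulators lower at an unadjusted p under 0.05 by limma. None of the genes named after Foxa1 passed.

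**Figure D4:**
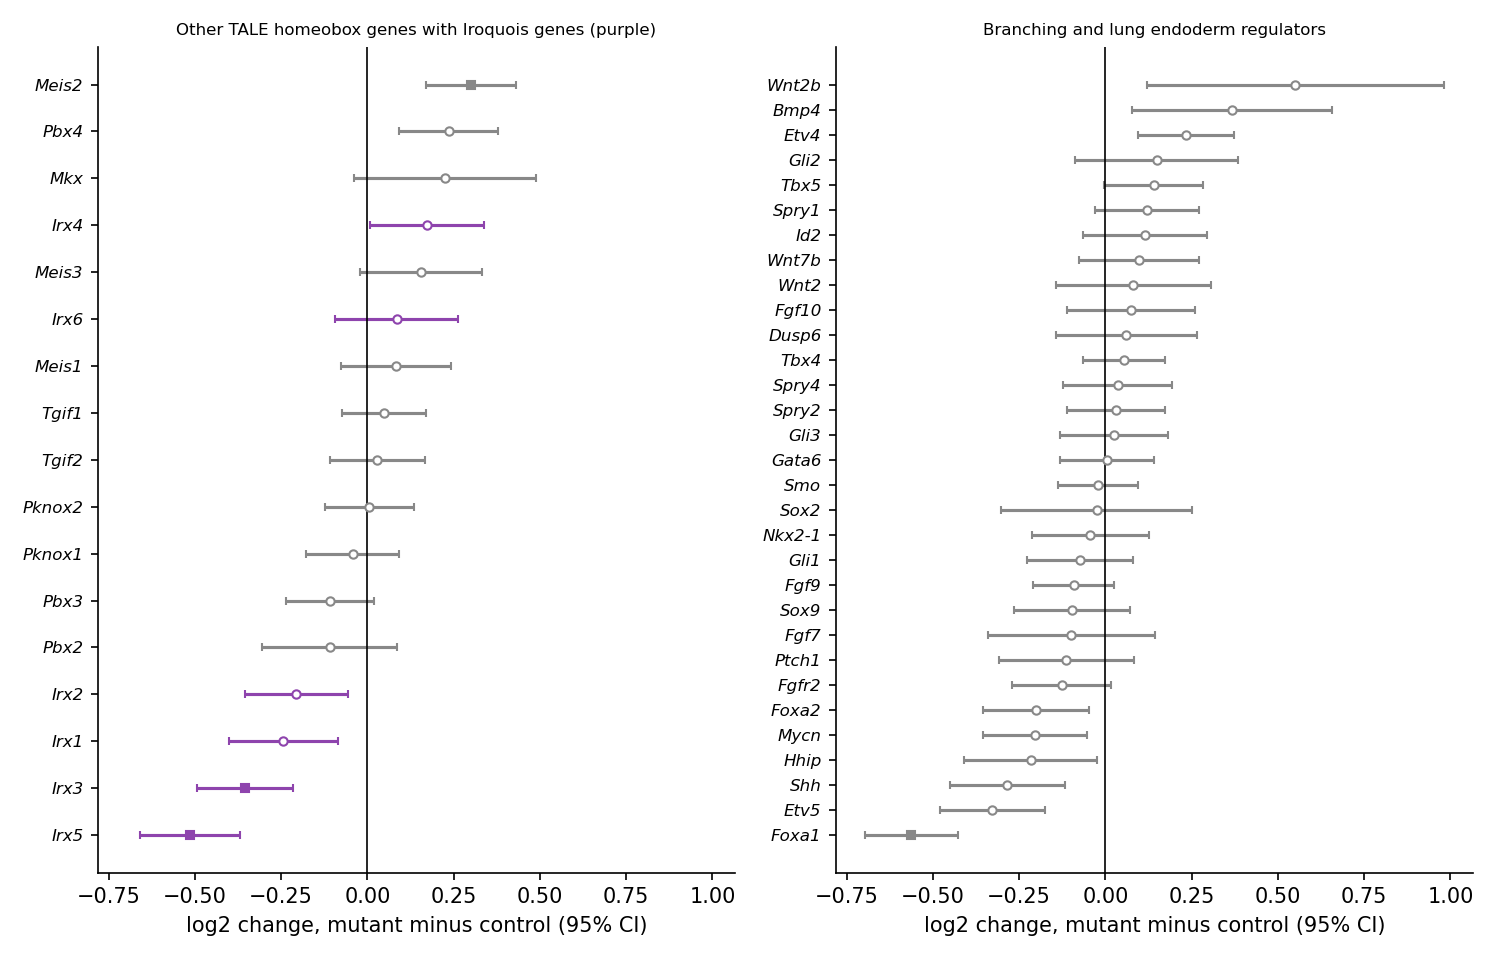
Log2 change, mutant minus control, with its 95% confidence interval (x axis) for TALE homeobox genes including the Iroquois genes (purple, left) and for regulators of branching and lung endoderm (right), with filled squares for called genes. Irx5 and Irx3 lie lowest on the left and Meis2 highest, and Foxa1 lies lowest on the right.

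The cell types that make up the lung were followed through marker lists. The 34 measured epithelial markers had a mean log2 value of 8.75 to 8.81 in mutants and 8.72 to 8.91 in controls, with 1 called higher, Ovol1 with a log2 change of 0.41, 0 called lower and a median change of −0.09. At an unadjusted p under 0.05 by limma, 9 were lower and 4 higher, beside 4.26% and 5.61% of all genes. Of the 34, 21 had a negative change. Epcam, an adhesion molecule of all lung epithelium, read 10.88 to 10.97 in mutants and 11.12 to 11.32 in controls, a log2 change of −0.26 that missed the threshold (adjusted p = 0.139, limma). Cdh1, the gene of E-cadherin, had −0.02. Among the others at that unadjusted p, picked here after their values were seen, the splicing factors Esrp1 and Esrp2 had −0.24 and −0.20, the transcription factor Grhl2 −0.18 and the tight junction gene Cldn6 −0.27, while the keratin gene Krt19 had 0.50 and the transcription factor Ehf 0.32. None of these 6 passed after adjustment. The part of these epithelial values in the Iroquois changes was not tested. With the mean of the epithelial list as a covariate, Irx5 had a log2 change of −0.54 and an adjusted p of 0.001, and Irx3 had −0.32 and 0.00884, by limma. The members of that list went both ways and its means overlapped between genotypes, so this fit does not measure the share of epithelium.

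Smooth muscle markers averaged 9.46 to 9.59 in mutants and 9.66 to 9.74 in controls, with 1 of 12 called lower, Cnn1 with a log2 change of −0.46, 4 lower and 0 higher at an unadjusted p under 0.05 by limma, and 11 of 12 changes negative. Mesenchymal markers averaged 10.41 to 10.45 in mutants and 10.35 to 10.40 in controls, with 0 of 19 called and 3 higher and 1 lower at that p. Airway cartilage markers averaged 7.86 to 7.89 in mutants and 7.76 to 7.82 in controls, with 0 of 12 called and 3 higher and 1 lower at that p. Markers of oesophagus and thyroid averaged 7.02 to 7.22 in mutants and 6.69 to 6.75 in controls, with 2 of 8 called higher, Krt4 with 1.22 and Pax9 with 0.78, and 4 higher and 0 lower at that p. Mesothelial markers averaged 8.42 to 8.51 in mutants and 8.31 to 8.41 in controls, with 1 of 10 called higher, Upk1b with 0.46, and 2 higher and 0 lower at that p, the other being Krt19, which is also in the epithelial list. In these 5 lists the means of the embryos did not overlap between genotypes, narrowly so for mesenchymal (10.41 against 10.40) and mesothelial markers (8.42 against 8.41). Over all genes 8.07% were without overlap, and 4.26% were lower and 5.61% higher at that p. No such share was computed for means of lists, and the part of these lists in the Iroquois changes was not tested.

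Heart muscle, for which Irx4 is known, averaged 7.42 to 7.53 in mutants and 7.32 to 7.46 in controls, with 0 of 20 called by limma and 2 higher and 1 lower at an unadjusted p under 0.05. The lower one was Actc1 with a log2 change of −0.48, and the higher ones were Nkx2-5 with 0.30 and Tnni1 with 0.18, all without overlap. The ventricular gene Myl2 read 7.09 to 7.17 in mutants and 7.02 to 7.21 in controls. Myl7 varied more among embryos, at 7.57 to 8.42 in mutants and 7.09 to 8.29 in controls. Endothelial, erythroid and myeloid markers had 0 of 15, 0 of 7 and 0 of 10 called by limma, with 1, 0 and 0 higher and 0, 0 and 0 lower at an unadjusted p under 0.05. Markers of neurons and neural crest had 1 of 11 called, Ret, which fell by 0.43 on the log2 scale, with 1 higher and 1 lower at that p.

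How the members varied among embryos of one genotype was described by Pearson's r of deviations from the genotype means over the 8 embryos, with no test. The 3 paralogue pairs were positive, with 0.62 for Irx1 and Irx3, 0.61 for Irx2 and Irx5 and 0.50 for Irx4 and Irx6. The other 12 pairs ranged from −0.64 to 0.46. The lowest value was that of Irx3 and Irx5, the neighbours that both fell, and Irx1 and Irx2 gave 0.15. These values rest on 8 embryos in 4 litters that share sex and array differences. Those of Irx3 rest mostly on the controls, with an SD of 0.10 against 0.02 in mutants. They therefore mainly set the 2 control litters, which also differ in sex, against each other.

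The genes most like Irx5 in this measure, among about 10417 genes at or above the median level, were Gatad2b, a subunit of the NuRD complex, with 0.99, and Rpl22l1 and Kif21b, both with 0.98. For Irx3 they were Gstm1 and Uchl1 with 0.99 and Sfta2 with 0.98. None of these 6 genes was called between genotypes. For Irx1 they were Tnip1, Mical2 and Gnb5 (0.97 to 0.99), for Irx2 Siah2, Klc4 and Rusc2 (all 0.97), for Irx4 Sdc3, Sh2b2 and Gprin3 (0.95 to 0.96) and for Irx6 Tollip, Upp1 and Hmgn1 (0.97 to 0.99). With 8 embryos and this many genes, values of this height are found for every member, and between 9 and 206 genes exceeded 0.9. The 206 were those of Irx3, whose deviations lie mainly between the control litters.

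**Figure D5:**
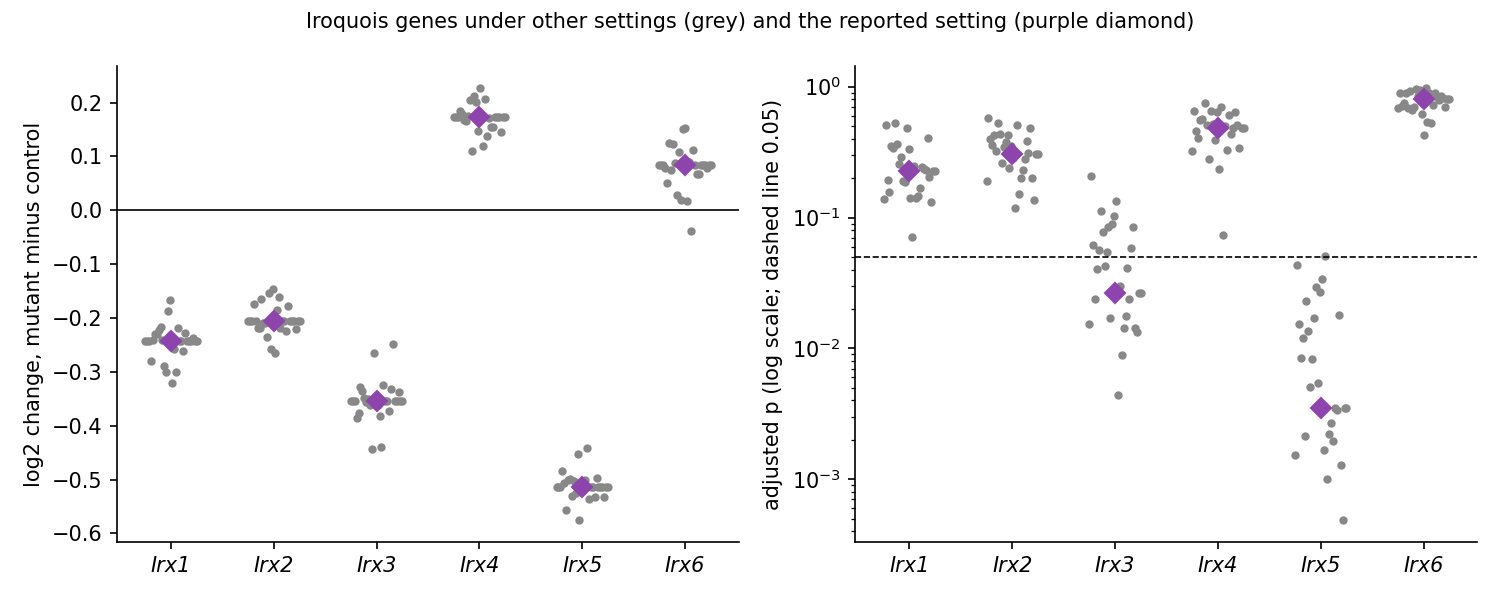
Log2 change, mutant minus control (left), and adjusted p from limma on a log scale (right) for the 6 Iroquois genes under the reported setting (purple diamonds) and the other settings (grey points). The dashed line is the threshold of 0.05. Irx5 lies below it in all settings but 1, Irx3 on both sides of it, and the other members above it in every setting.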

How the data were processed

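One array per embryo was read for 8 embryos. The authors deposited log2 values for each probe set. Per the submitters' processing notes they used RMA in oligo, without stated versions or options. RMA gives all arrays like distributions and draws changes of dim genes towards 0.

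The platform annotation gave 1 symbol to 23521 of 41345 probe sets and several to 1814, and it did not list 16010. For 1082 genes with several probe sets the brightest was used. Per 23328 matches by gene number, a RefSeq table (GRCm38.p6) gave names and neighbours. Genes were tested with limma 3.58.1 in R 4.3.3, two-sided, with litter as a random block (correlation 0.153). The fit was also run on simulated data with the same litter correlation for all genes. These data held no sex or array effects, so they say nothing on those. Embryos are separate animals, but they come from 4 litters that each hold 1 genotype. The numbers of embryos and of litters limit the precision, and litter and genotype cannot be fully told apart. The members, the gene lists and the rule for named genes (all Irx genes, neighbours, called list members, tissue-defining genes, the 3 most similar genes) were chosen with earlier results of these data known. Pairs of Irx genes were chosen after the data were seen. Python 3.11.15 and matplotlib 3.10.9 drew the figures.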

Additional observations from a re-analysis of the deposited data

Results flagged for a closer look

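Among the Iroquois genes, their neighbours and Ezh2, 62 groups of 4 values were searched for an embryo far from the rest of its group. No Iroquois gene held such an embryo. It found 7 among the neighbours, while about 1 in 20 groups, or 3.1, would be found by chance. For mutant 3 this was the lowest value of Aktip (log2 value 9.65) and the highest of Lpcat2 (8.30). Mutant 2 had the lowest value of Mmp2 (12.39). Control 4 was lowest for Adamts16 (6.25), control 1 highest for 8030423J24Rik (6.88), control 3 highest for Clptm1l (10.29) and control 2 lowest for Capns2 (6.78).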

How the results depend on the processing

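Several settings change only the blocks, the variance model, the genes tested or the threshold and cannot alter a log2 change. The sign of the log2 change was kept by Irx1, Irx2, Irx3, Irx4 and Irx5 in every setting tried, and by Irx6 in all but the fit to high-Xist embryos only, where it was −0.038. There the controls came from a single litter, and Irx5 had −0.44 and missed the threshold at an adjusted p of 0.0511 by limma. Irx3 missed it by limma with litter means (log2 change −0.35, adjusted p 0.209) and with the replicate number as a block (−0.35, adjusted p 0.0616). It also missed it without litter 2, 3 or 4 (−0.27, −0.35 and −0.36). These fits had no litter block and left a single litter in 1 genotype. Irx3 missed the threshold too with its dimmer probe set averaged in (−0.25). The same held with all probe sets tested (−0.35) and at an adjusted p of 0.01 (−0.35). With 1 embryo left out Irx3 had −0.39 to −0.33 and was called in 3 of 8 fits, and Irx5 had −0.56 to −0.49 and was called in 8 of 8. In each such setting 1 Iroquois gene was called lower, and with 1 embryo left out 1 to 2 were. By the exact permutation test alone, Irx2 (−0.21) and Irx4 (0.17) had an unadjusted p of 0.0286. Filters on dim genes removed Irx4, and 1 of them Irx6, so no cluster difference was computed there.

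The replicate numbers mark no shared litter, and same-numbered embryos deviated with correlations of −0.27 to 0.03. The replicate block, fitted in place of the litter block, gave 140 genes higher and 55 lower, against 190 and 95 with neither block and 134 and 55 with the litter block.

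Counts of genes higher and lower were 65 and 33 with litter means, 75 and 23 without litter 4, 361 and 313 when Xist was a covariate, 274 and 108 with the epithelial mean as a covariate, 221 and 105 with array weights, and 71 and 24 at an adjusted p of 0.01. Lower genes numbered 95 without any block, 90 without litter 1, 34 with all probe sets tested and 96 at an adjusted p of 0.1. Higher genes numbered 79 among high-Xist embryos. With 1 embryo left out the counts were 73 to 157 and 28 to 75, lowest without mutant 4 and next lowest without control 4, at 89 and 32. The causes were not tested. Signal near the upper end of background readings limits what Irx4 and Irx6 can show.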
